A study of Mus musculus with 12 samples.

Results

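The matrix metalloproteinases (Mmp), the Adamts proteases, the Adamts-like proteins (Adamtsl) and the tissue inhibitors of metalloproteinases (Timp) were followed in wounded skin of diabetic mice. Members were taken by gene symbol: 51 symbols of the 4 families matched among 24062 genes counted, and 50 of them had at least 10 counts over all libraries. These are 22 Mmp, 4 Timp, 19 Adamts and 5 Adamtsl genes. RNA had been sequenced from wounds in the back skin of C57BL/6 mice made diabetic with streptozotocin, a toxin of pancreatic beta cells, with 12 mice and 1 library per mouse. The 4 groups of 3 mice carry 4 treatment labels, pre-MCS-01 and post-MCS-01, DSCG, and blank, and all of them share the strain and the streptozotocin. MCS-01 is a mast cell stabilizer according to the series title and is known here only by its code. DSCG commonly stands for disodium cromoglycate, a drug of the same class, and the blank wounds were read as controls. What pre and post refer to is not said. Dose, time after wounding, age and sex are not given in the sources used here.

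Mmps are zinc-dependent endopeptidases that are made as inactive proenzymes and that together cut most proteins of the extracellular matrix. Collagenases open the triple helix of fibrillar collagen, gelatinases digest the unwound chains, stromelysins cut proteoglycans and activate other proenzymes, and membrane-type Mmps work at the cell surface. Timps bind the active site of Mmps, and Timp3 also blocks several Adamts enzymes. In skin wounds, Mmps come from migrating keratinocytes, fibroblasts, macrophages and neutrophils, and an excess of Mmp9 over Timp1 is a known feature of diabetic ulcers. Adamts proteases carry thrombospondin repeats that hold them in the matrix, where they trim procollagen or cut large proteoglycans, and Adamtsl proteins have the repeats without the protease.

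A run of 9 Mmp genes lies on mouse chromosome 9, between positions 7272514 and 7674979 of GRCm38, a stretch of 402466 bases that holds Mmp13, Mmp12, Mmp1b, Mmp3, Mmp1a, Mmp10, Mmp8, Mmp27 and Mmp20. Promoters of several of these genes are textbook targets of AP-1, the Fos and Jun transcription factor. The RefSeq windows of GRCm38.p6, which run from 250 bases before to 50 bases after each annotated start, were searched for its 7 letters TGAGTCA on either strand. Of 35 members with such a window, 6 held the letters, all 6 among the 9 genes of the chromosome 9 run and 0 among the other 26 members. Over all 27025 genes with windows, 5.946% held them in at least 1 window. Counted by window, 5.202% of all 32851 held them. The 150 bases before the start are shown for Mmp13 and Mmp3, the pair of AP-1-bearing genes with the highest levels per kilobase in these wounds, and for Mmp8, whose window lacks the letters and whose fold change between post-MCS-01 and DSCG was the largest of the 47 members tested. Capitals mark the AP-1 letters, read 5′ to 3′ on the gene's strand, and the plus strand carries all 3 genes.
The stretches lie at chr9:7272364-7272513, chr9:7445672-7445821 and chr9:7558279-7558428 of GRCm38.p6.
Mmp13: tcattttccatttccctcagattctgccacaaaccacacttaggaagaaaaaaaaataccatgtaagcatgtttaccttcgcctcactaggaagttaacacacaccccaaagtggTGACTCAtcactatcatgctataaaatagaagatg
Mmp3: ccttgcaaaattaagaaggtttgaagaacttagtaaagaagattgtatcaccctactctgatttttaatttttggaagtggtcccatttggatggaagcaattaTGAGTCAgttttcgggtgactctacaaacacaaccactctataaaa
Mmp8: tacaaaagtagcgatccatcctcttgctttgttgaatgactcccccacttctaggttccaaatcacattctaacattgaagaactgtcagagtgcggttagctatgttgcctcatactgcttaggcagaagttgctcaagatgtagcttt
For the other 4 genes with the letters, the 30 bases around them are shown. The letters begin 44 bases before the later of the 2 annotated starts of Mmp12, and 93, 73 and 63 bases before the starts of Mmp1b, Mmp1a and Mmp10. In Mmp13 and Mmp3 they begin 35 and 46 bases before the start.
They lie at chr9:7347319-7347348, chr9:7464057-7464086 and chr9:7502268-7502297 on the plus strand and at chr9:7388101-7388130 on the minus strand.
Mmp12: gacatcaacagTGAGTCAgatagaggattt
Mmp1b: gttacaaagccTGAGTCAtatagcctctgg
Mmp1a: gttgtcaaccaTGAGTCAcatagcctctgg
Mmp10: tagcacccatgTGAGTCAtgcttagtgacc
A match of letters is a description of the sequence and not a measured binding site.

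Library depth ranged from 3835042 gene counts in blank replicate 3 to 50461867 in blank replicate 1, and every library other than blank replicate 3 had at least 37702643 gene counts. Levels are given in the usual CPM unit, each gene's count relative to the TMM-scaled total of its library. A gene with 0 counts could reach 0.786 CPM in blank replicate 3 and 0.0588 to 0.0852 CPM in the other 11 libraries (3 counts), and such limits cover counting error only. Relative to the mean of the 12 libraries, long transcripts were underrepresented in 3 of them, pre-MCS-01 replicate 2, DSCG replicate 2 and also blank replicate 3. For each library, Spearman's rho was taken across genes between exon length and log2 CPM minus the gene's mean over the 12 libraries. It was -0.385, -0.330 and -0.320 in these 3, against -0.0561 to 0.337 in the other 9. Pre-MCS-01 replicate 3 stood apart in the summed level of 6 fibroblast markers, which was 65046 CPM, against 12334 and 11651 CPM in its 2 partners. Col1a1, Col1a2 and Col3a1 made up most of this sum. Pdgfra, Dcn and Lum spanned less within pre-MCS-01, at 37.1 to 116, 430 to 676 and 143 to 344 CPM. The labelled tissue is a skin wound, and all 8 keratinocyte, 6 fibroblast and 6 mast cell markers looked up were above 0 in every library.

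Members made up 0.198% (pre-MCS-01 replicate 2) to 0.617% (blank replicate 2) of a library's gene counts. Per kilobase of exon, averaged over 12 libraries, Mmp2 had the highest level at 260.3 CPM per kb, followed by Timp2 (178), Mmp14 (162) and Mmp3 (112). These are a gelatinase, its inhibitor, the membrane enzyme that activates it on the cell surface, and a stromelysin. Next in order came Timp1 (49.8), Adamts2 (47.5), Mmp11 (44.6), Mmp9 (31.8) and Timp3 (18.1). The ranges of neighbours in this order overlapped throughout. At the other end, the enamel protease Mmp20 had 33 counts in all libraries together, Mmp21 had 31 and Mmp1a had 11, and these 3 did not pass the filter on low counts. That filter left 47 members to be tested among 16267 genes, and members at low levels passed it only where enough libraries held counts.

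**Figure D1:**
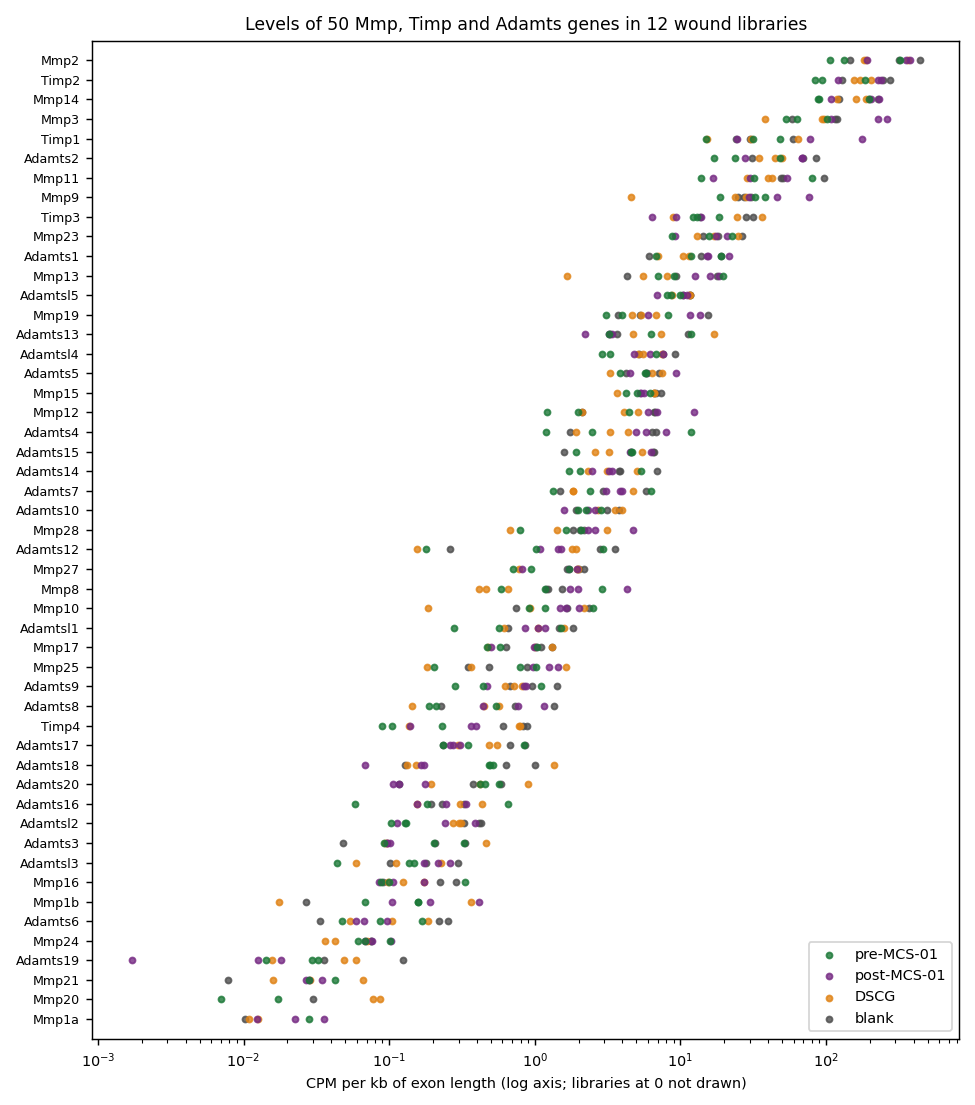
Level of each of the 50 members in each library, in CPM per kilobase of exon on a log axis, coloured by treatment group, with genes ordered by their mean. Levels run from about 260 CPM per kb for Mmp2 to 0.011 for Mmp1a, and the 4 groups overlap in most rows.

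No member passed an adjusted p of 0.05 in edgeR's quasi-likelihood test in any of the 6 comparisons, nor in the joint test of the 4 groups. Differences named below are therefore given as values and not as changes. In bulk RNA, fewer cells of a type and less RNA per cell cannot be told apart. P-values measure the spread between mice of a group, and comparisons that share a group are not independent of each other. The counts of members are read against the same counts over all 16267 genes tested.

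In post-MCS-01 against DSCG, the collagenases Mmp8 and Mmp13, the gelatinase Mmp9, the stromelysin Mmp3 and the elastase Mmp12 had higher levels in all post-MCS-01 than in all DSCG libraries, as had Adamts1 and Adamts4, whereas Adamts10, Adamts13 and Adamts20 had lower ones. Of 19 tested Mmp genes, 13 had positive log2 fold changes and 6 negative ones, and the 19 Adamts genes split into 9 positive and 10 negative. Adjusted over all genes, 0 of 47 members and 1.06% of all genes passed in edgeR. DESeq2 called 2 members (Mmp8 and Adamts20) and 3.81% of all genes. Limma-voom called 0 members with or without library quality weights, and 0% and 0.0123% of all genes in that order. Unadjusted, 9 members (19.1%) had p under 0.05, against 11.3% of all genes: 4 were higher, where 4.63% of all genes were, and 5 lower, where 6.72% of all genes were. In 10 members (21.3%) the libraries of both groups did not overlap, against 15.4% of all genes, with 7 higher (7.14% of all genes) and 3 lower (8.28% of all genes). The median log2 fold change of members was 0.06, and -0.01 over all genes. By family the medians were 0.74 for 19 tested Mmp genes, -0.40 for 4 Timp genes, -0.20 for 19 Adamts genes and -0.08 for 5 Adamtsl genes.

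In pre-MCS-01 against post-MCS-01, Mmp levels were lower in pre-MCS-01 for 17 of 19 tested Mmp genes (7726 of all 16267 genes), at a median of -0.54 on the log2 scale, and 11 of 19 Adamts genes were higher (8541 of all genes), with a median of 0.04. EdgeR called 0 of 47 members and 0.824% of all genes. DESeq2 called 2 members (Adamts20 and Mmp3) and 2.63% of all genes, and limma-voom 0 members and 0.00615% of all genes. Limma-voom with quality weights called 20 members, a setting in which it called 23.5% of all genes. Members with unadjusted p under 0.05 numbered 4 (8.51%, against 10.2% of all genes), and those without overlap 6 (12.8%, against 17.7%). Over all 47 members the median was -0.36, and 0.03 over all genes. Without pre-MCS-01 replicate 3, the library with the high fibroblast marker sum, 16 members had unadjusted p under 0.05, against 15.1% of all genes, and the median was -0.98.

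Against blank, the members of pre-MCS-01 wounds leaned low: 37 of 47 had a negative log2 fold change, as had 7471 of 16267 genes, and the median was -0.42, with 0.04 over all genes. EdgeR called 0 members and 0% of all genes, DESeq2 2 members (Adamtsl2 and Timp4, with 0.424% of all genes), limma-voom 0 and limma-voom with quality weights 20 (15.3% of all genes). Unadjusted p was under 0.05 for 4 members (8.51%, against 7.24% of all genes), all of them lower, as 3.93% of all genes were, and 5 had no overlap (10.6%, against 14.4%). This comparison depended on pre-MCS-01 replicate 3: without it, 20 members had unadjusted p under 0.05, against 11.2% of all genes, and the median was -0.98, with 0 members called.

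Wounds labelled post-MCS-01 differed from blank wounds with Mmp genes leaning high and Adamts genes leaning low, at medians of 0.31 and -0.51 on the log2 scale. The median over all 47 was -0.18, and -0.01 over all genes. EdgeR called 0 members and 0% of all genes. DESeq2 also called 0 members, with 2.51% of all genes. Limma-voom called 0 members and 0% of all genes, and with quality weights 3 members (Adamts17, Adamts18 and Adamts20, with 5.08% of all genes). Unadjusted p was under 0.05 for 7 members (14.9%, against 9.35% of all genes), and 7 had no overlap (14.9%, against 18.4%).

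The 2 comparisons left had the fewest members at unadjusted p under 0.05 and the fewest without overlap. In DSCG against blank, edgeR called 0 members and 0% of all genes, as did DESeq2 and both limma-voom fits. Of the 47 members, 41 had a negative log2 fold change, as had 8166 of 16267 genes (median -0.37, and -0.00164 over all genes), 1 had unadjusted p under 0.05 (2.13%, against 1.03%) and 3 had no overlap (6.38%, against 3.68%). In pre-MCS-01 against DSCG, edgeR and both limma-voom fits called 0 members and 0% of all genes. DESeq2 called 0 members and 0.105% of all genes. Unadjusted p was under 0.05 for 3 members (6.38%, against 2.36%) and 1 had no overlap (2.13%, against 5.12%), with a median of -0.17, and 0.03 over all genes. Without pre-MCS-01 replicate 3 the first of these counts was 11, against 3.94% of all genes, and the median -0.64. The joint test gave 0 members and 0% of all genes by edgeR, with 6 members and 8.42% of all genes at unadjusted p under 0.05. DESeq2 called 3 members there (Adamtsl2, Mmp8 and Timp4) and 3.49% of all genes, and limma-voom 0 members and 0.00615% of all genes. Limma-voom with quality weights called 17 members and 13.5% of all genes.

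**Figure D2:**
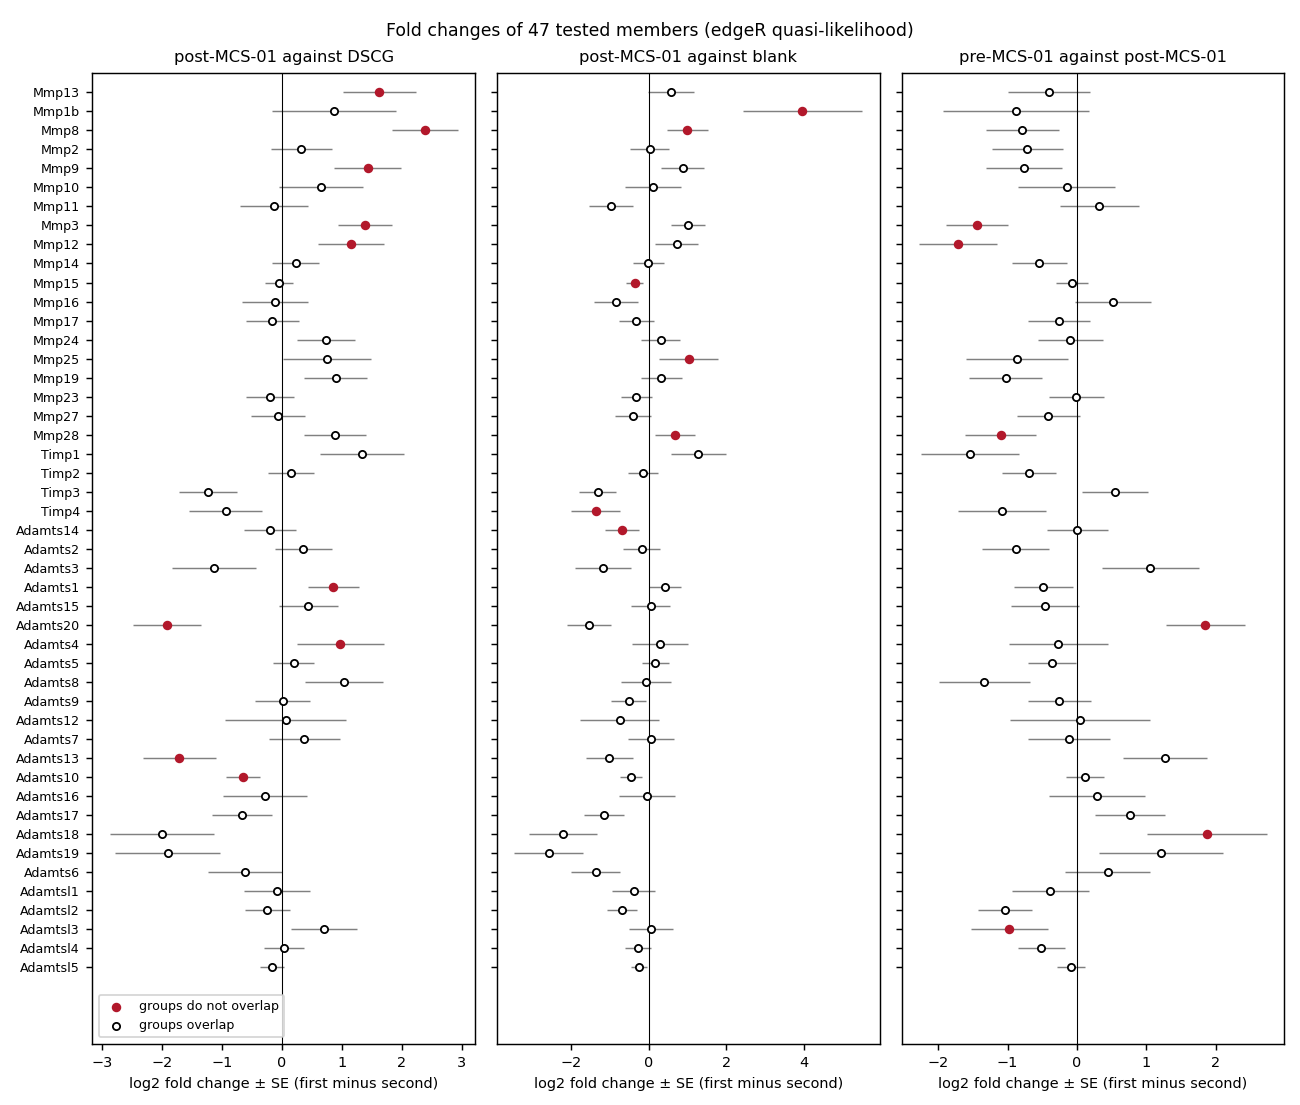
Log2 fold change with its standard error for each of the 47 tested members, by edgeR, in post-MCS-01 against DSCG, post-MCS-01 against blank and pre-MCS-01 against post-MCS-01, with red points where the libraries of both groups do not overlap. Mmp8, Mmp13, Mmp9, Mmp3 and Mmp12 lie right of 0 in the first panel, and Adamts20, Adamts13 and Adamts10 lie left of it.

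Of the collagenases, Mmp8, the enzyme stored in neutrophil granules, gave the smallest adjusted p of any member. Mmp8 had 2.83, 1.42 and 7.0 CPM in the pre-MCS-01 libraries, 4.21, 10.4 and 4.80 CPM in post-MCS-01, 1.60, 1.01 and 1.12 CPM in DSCG and 3.72, 3.01 and 2.88 CPM in blank libraries. Every post-MCS-01 library lay above every DSCG library and every blank library, and every DSCG library lay below every blank library. Post-MCS-01 against DSCG gave a log2 fold change of 2.38 ± 0.55 (SE; adjusted p = 0.0763), which ranged from 1.84 to 2.61 over all other settings. It passed 0.05 in edgeR without pre-MCS-01 replicate 2 (adjusted p = 0.0373) or pre-MCS-01 replicate 3 (0.0491), and in DESeq2 (0.000723). Against blank it was -1.38 ± 0.55 (SE; adjusted p = 0.999) in DSCG wounds and 1.00 ± 0.53 (SE; adjusted p = 0.617) in post-MCS-01 wounds. In pre-MCS-01 against DSCG, where the groups overlapped, it was 1.60 ± 0.54 (SE; adjusted p = 1.00).

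The summed level of the 5 neutrophil markers analysed here, of 6 listed, was 3965 to 6392 CPM in pre-MCS-01, 4426 to 9973 in post-MCS-01, 27.8 to 3647 in DSCG and 482 to 876 in blank wounds. All 5 were above 0 in every library. Most of this sum came from S100a8 and S100a9, which keratinocytes of wounded skin also make, at means of 2067 and 4415 CPM in post-MCS-01 and 499.5 and 959 CPM in DSCG, and both lay higher in all post-MCS-01 than in all DSCG libraries. Csf3r, Cxcr2 and Retnlg, the other 3, overlapped between post-MCS-01 and DSCG. Mmp8 did not follow the sum in every library: DSCG replicate 1 had a sum of 3647 CPM and 1.60 CPM of Mmp8, and the blank libraries had sums of 482 to 876 CPM and 2.88 to 3.72 CPM of Mmp8. Their part in the Mmp8 values was not tested.

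Mmp13, the main collagenase of rodent connective tissue and a carrier of the AP-1 letters, differed in the same direction at a higher level. The level of Mmp13 was 18.9, 24.0 and 52.4 CPM in wounds labelled pre-MCS-01, 43.0, 49.0 and 33.9 in those labelled post-MCS-01, 21.7, 14.8 and 4.47 in DSCG and 47.9, 11.5 and 24.9 in blank wounds. Post-MCS-01 libraries lay above DSCG libraries without overlap, and both overlapped blank ones, whose values spread widely. In post-MCS-01 against DSCG the log2 fold change was 1.62 ± 0.61 (SE; adjusted p = 0.313). Mmp1b, a rodent relative of human MMP1, was scarce. It had 22 counts over the pre-MCS-01 group, 43 over post-MCS-01, 25 over DSCG and 2 over blank. The ratio of post-MCS-01 to blank counts, scaled by depth, was 17.7 (95% counting interval 4.61 to 151), and the edgeR log2 fold change 3.95 ± 1.54 (SE; adjusted p = 0.431). In pre-MCS-01 against blank the ratio was 9.52 (2.34 to 83.5). There edgeR gave a log2 fold change of 3.08 ± 1.60 (SE, adjusted p = 0.706). Both counting intervals are for counts pooled over a group and leave out the spread between mice. Blank replicate 3 adds little here, since its limit of 0.786 CPM lies above the highest Mmp1b level of any library, 0.600 CPM. In DSCG against blank the fitted log2 fold change of 3.09 rested on DSCG replicate 2, and it was -0.59 without that library. Mmp1b and Mmp12 share 157 bases of exon on opposite strands, and the strand setting of the counting is not given in the sources used here, so their reads may be mixed.

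Gelatinases divided by level and by group. Mmp2, which fibroblasts make, was the most abundant member. In pre-MCS-01 wounds Mmp2 stood at 446, 361 and 1083 CPM, in post-MCS-01 at 1194, 642 and 1271 CPM, in DSCG at 1233, 613 and 639 CPM and in blank at 1494, 1064 and 491 CPM. All 4 groups overlapped, and no comparison exceeded a log2 fold change of -0.72 ± 0.51 (pre-MCS-01 against post-MCS-01, adjusted p = 0.659). Mmp9, the gelatinase of neutrophils, macrophages and the wound edge, was less abundant. Libraries labelled pre-MCS-01 held 116, 66.0 and 135 CPM of Mmp9, post-MCS-01 libraries 163, 271 and 104 CPM, DSCG libraries 101, 83.7 and 16.3 CPM and blank libraries 88.0, 97.7 and 108 CPM. Post-MCS-01 lay above DSCG by a narrow margin, since its lowest library had 104 CPM and the highest DSCG library 101 CPM. This gave a log2 fold change of 1.43 ± 0.55 (SE; adjusted p = 0.339). Against blank it was 0.88 ± 0.55 (SE; adjusted p = 0.702) in post-MCS-01, where the groups overlapped. DSCG replicate 3 was the lowest library, and without it the post-MCS-01 to DSCG difference was 0.95 on the log2 scale.

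The stromelysin Mmp3, which fibroblasts and keratinocytes behind the wound edge make, was high in post-MCS-01. Mmp3 had 114, 96.6 and 184 CPM in the pre-MCS-01 libraries, 408, 195 and 472 CPM in post-MCS-01, 174, 169 and 69.2 CPM in DSCG and 209, 215 and 105 CPM in blank libraries. Both other treatments lay wholly below post-MCS-01, whereas 2 of the 3 blank libraries exceeded the lowest post-MCS-01 library. For Mmp3 the log2 fold change was -1.45 ± 0.45 (SE; adjusted p = 0.256) in pre-MCS-01 against post-MCS-01 and 1.39 ± 0.45 (SE; adjusted p = 0.226) in post-MCS-01 against DSCG. DESeq2 called the first of these (adjusted p = 0.0432). Mmp10, the related stromelysin of migrating keratinocytes, stayed low. The level of Mmp10 was 2.04, 1.56 and 4.35 CPM in wounds labelled pre-MCS-01, 3.45, 2.81 and 2.57 in those labelled post-MCS-01, 1.60, 3.74 and 0.318 in DSCG and 4.08, 1.29 and 2.88 in blank wounds. Its groups overlapped in every comparison. Mmp11, which stromal cells secrete in active form, had its lowest library in pre-MCS-01 replicate 2, at 38.6 CPM, and its highest in blank replicate 2, at 269.9 CPM. It was lower in all 3 DSCG libraries than in all 3 blank ones, at -0.83 ± 0.57 (SE; adjusted p = 0.999) on the log2 scale.

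Mmp12, the elastase of macrophages, was the tested member with the largest negative difference of pre-MCS-01 from post-MCS-01. In pre-MCS-01 wounds Mmp12 stood at 8.75, 14.4 and 32.4 CPM, in post-MCS-01 at 89.3, 49.8 and 43.3 CPM, in DSCG at 15.4, 29.5 and 37.2 CPM and in blank at 48.5, 15.4 and 47.7 CPM. Every pre-MCS-01 library and every DSCG library lay below every post-MCS-01 library, and blank overlapped all of them. Pre-MCS-01 against post-MCS-01 gave a log2 fold change of -1.72 ± 0.56 (SE; adjusted p = 0.297). In post-MCS-01 against DSCG it was 1.15 ± 0.55 (SE; adjusted p = 0.465). The summed level of the 5 macrophage markers analysed here, of 6 listed and all above 0 in every library, was 782 to 1095 CPM in pre-MCS-01, 1083 to 2059.8 in post-MCS-01, 823 to 1690.4 in DSCG and 1289.9 to 1419 in blank wounds. All 5 markers had negative log2 fold changes in pre-MCS-01 against post-MCS-01 (median -0.95), 3 of them without overlap (Csf1r, Cd68 and Mrc1), and the part of the markers in the Mmp12 values was not tested.

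**Figure D3:**
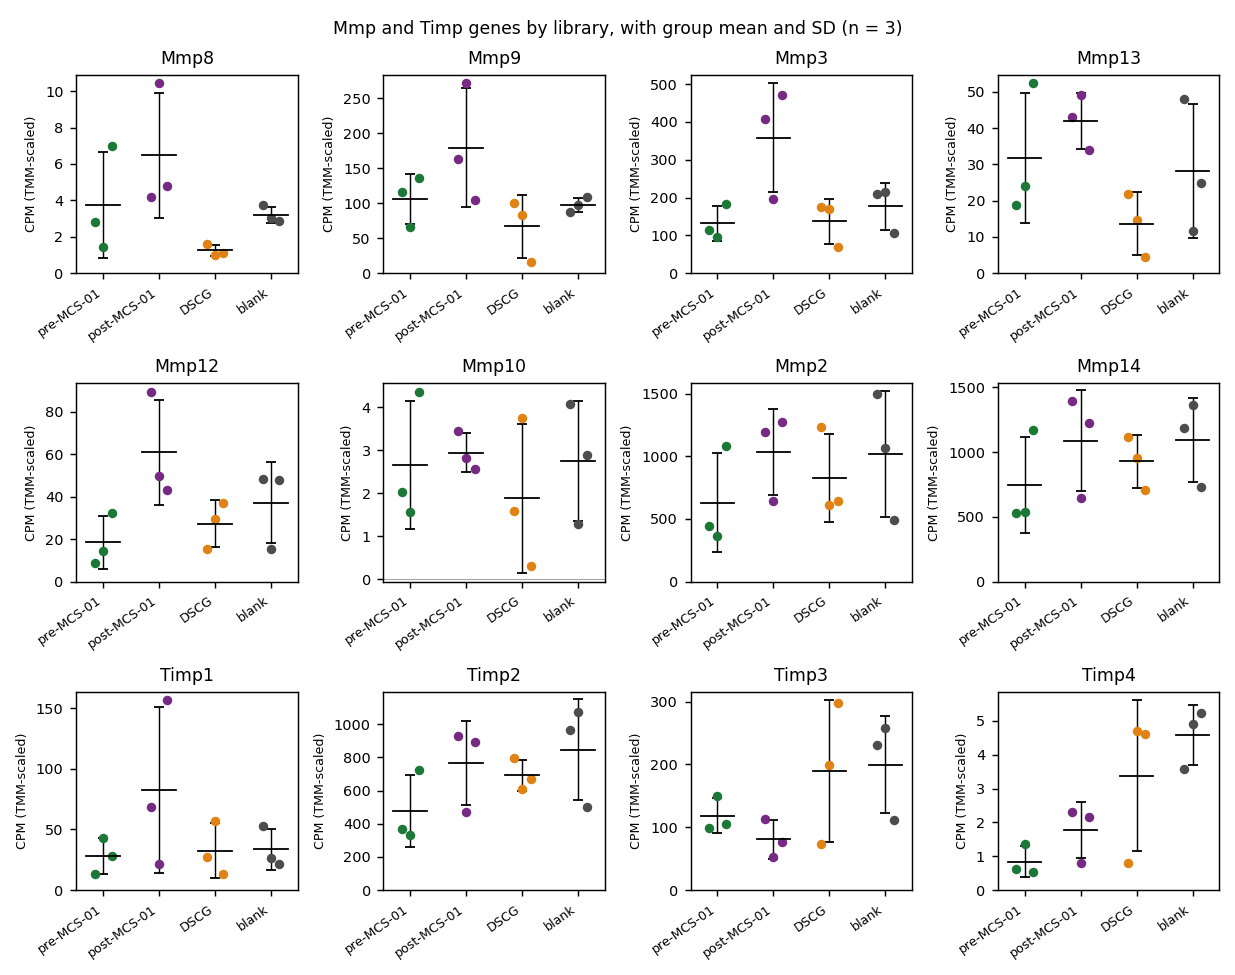
Level in CPM of 8 Mmp and 4 Timp genes in each library, with the mean and standard deviation of each group of 3 as bars. Mmp8 and Mmp3 show the post-MCS-01 libraries above all DSCG libraries, and Mmp2, Mmp14 and Timp2 show groups that overlap.

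Of the 6 membrane-type Mmps, Mmp14, which activates Mmp2 at the cell surface, was the most abundant. Libraries labelled pre-MCS-01 held 528, 534 and 1174 CPM of Mmp14, post-MCS-01 libraries 1391, 647 and 1223 CPM, DSCG libraries 1116, 957 and 709 CPM and blank libraries 1186, 1361 and 733 CPM. The groups overlapped in every comparison, and the highest library exceeded the lowest 2.64-fold. Mmp15 was lower in every post-MCS-01 and every pre-MCS-01 library than in every blank library, by small margins: 27.8 ± 5.12 CPM in pre-MCS-01, 29.2 ± 1.12 in post-MCS-01, 30.3 ± 9.02 in DSCG and 37.5 ± 2.36 in blank wounds (SD, n = 3 each). The leukocyte enzyme Mmp25 averaged 3.56 ± 2.24 CPM in pre-MCS-01, 6.51 ± 1.24 in post-MCS-01, 3.88 ± 4.22 in DSCG and 3.05 ± 1.5 in blank wounds (SD, n = 3 each). Its post-MCS-01 libraries lay above all blank libraries, and it is 1 of 8 members that lay lower in the 3 libraries short of long transcripts than in the other 9. Mmp16, Mmp17 and Mmp24 stayed under 9 CPM in every library and overlapped in every comparison.

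The 6 remaining Mmp genes include Mmp19 and Mmp23, which had the highest levels among them, and Mmp28, an enzyme of keratinocytes. Mmp23 averaged 36.9 ± 16.4 CPM in pre-MCS-01, 37.2 ± 14.2 in post-MCS-01, 42.8 ± 14.0 in DSCG and 46.1 ± 14.8 in blank wounds (SD, n = 3 each), and its groups overlapped throughout. Mmp28 averaged 5.81 ± 2.52 CPM in pre-MCS-01, 12.5 ± 5.12 in post-MCS-01, 6.74 ± 4.88 in DSCG and 7.80 ± 0.628 in blank wounds (SD, n = 3 each). Its post-MCS-01 libraries, at 8.95 to 18.3 CPM, lay above all pre-MCS-01 and all blank libraries and overlapped DSCG. For Mmp28 the log2 fold change was -1.10 ± 0.51 (SE; adjusted p = 0.498) in pre-MCS-01 against post-MCS-01. Mmp20 had counts in 1 blank library, 2 DSCG libraries and 2 pre-MCS-01 libraries, and 0 in all 3 post-MCS-01 libraries.

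Among the inhibitors, Timp4 stood out in pre-MCS-01. Timp4 had 0.622, 1.36 and 0.529 CPM in the pre-MCS-01 libraries, 2.32, 0.816 and 2.16 CPM in post-MCS-01, 0.811, 4.70 and 4.62 CPM in DSCG and 3.59, 4.91 and 5.24 CPM in blank libraries. All pre-MCS-01 and all post-MCS-01 libraries lay below all blank libraries, and DSCG had 1 library among the low values and 2 among the high ones. For Timp4 the log2 fold change was -2.44 ± 0.66 (SE; adjusted p = 0.61) in pre-MCS-01 against blank, the largest negative difference of that comparison, and -2.02 ± 0.64 (SE; adjusted p = 1.00) in pre-MCS-01 against DSCG, where the groups overlapped. DESeq2 called the first (adjusted p = 0.0285). In post-MCS-01 against blank it was -1.36 ± 0.63 (SE; adjusted p = 0.542). Fat cells are a known source of Timp4, and the summed level of 4 adipocyte markers, all above 0 in every library, was 84.7 to 429 CPM in pre-MCS-01, 79.8 to 251 in post-MCS-01, 289.6 to 619 in DSCG and 310.3 to 579 in blank wounds. Fabp4 made up most of this sum. The other 3 markers, Adipoq, Plin1 and Lep, were lower in all pre-MCS-01 than in all blank libraries, with Adipoq at 4.46 to 25.6 CPM in pre-MCS-01 and 33.5 to 70.7 CPM in blank wounds, and all 4 markers were lower in all post-MCS-01 than in all blank libraries. The median log2 fold change of the 4 was -1.78 in pre-MCS-01 against blank and -1.29 in post-MCS-01 against blank. Their part in the Timp4 values was not tested.

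Timp1, the inducible inhibitor, varied most within post-MCS-01. The level of Timp1 was 13.4, 43.1 and 28.1 CPM in wounds labelled pre-MCS-01, 68.8, 21.7 and 156 in those labelled post-MCS-01, 27.1, 57.4 and 13.6 in DSCG and 53.1, 26.8 and 21.5 in blank wounds. The highest library of all 12 was post-MCS-01 replicate 3, and replicate 2 of the same group, at 21.7 CPM, was among the 4 lowest. The log2 fold change was -1.55 ± 0.71 (SE; adjusted p = 0.49) in pre-MCS-01 against post-MCS-01 and 1.27 ± 0.71 (SE; adjusted p = 0.643) in post-MCS-01 against blank. The ratio of Mmp9 to Timp1, per kilobase, was 2.16, 0.384 and 1.21 in pre-MCS-01, 0.595, 3.13 and 0.168 in post-MCS-01, 0.931, 0.366 and 0.302 in DSCG, and 0.416, 0.913 and 1.26 in blank wounds. Its spread within post-MCS-01 covered the values of all other groups.

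Timp2, which takes part in the activation of Mmp2 by Mmp14, followed those enzymes in level. In pre-MCS-01 wounds Timp2 stood at 368, 329.9 and 723 CPM, in post-MCS-01 at 930.0, 473 and 894 CPM, in DSCG at 793, 611 and 669 CPM and in blank at 966, 1073 and 501 CPM. All groups overlapped, and the log2 fold change of smallest p was -0.84 ± 0.38 (SE; adjusted p = 0.69) in pre-MCS-01 against blank. Timp3, the inhibitor that binds the matrix itself, was lowest in post-MCS-01. Libraries labelled pre-MCS-01 held 99.4, 150.2 and 106 CPM of Timp3, post-MCS-01 libraries 113, 52.1 and 76.6 CPM, DSCG libraries 72.7, 199.5 and 298 CPM and blank libraries 230.3, 257 and 112 CPM. A single library made the overlap on each side: blank replicate 3 at 112 CPM and DSCG replicate 1 at 72.7 CPM lay within the post-MCS-01 range of 52.1 to 113 CPM. The log2 fold change was -1.31 ± 0.48 (SE; adjusted p = 0.393) in post-MCS-01 against blank and -1.24 ± 0.48 (SE; adjusted p = 0.339) against DSCG. Exons of Timp3 share 1733 bases with Syn3, and those of Timp4 90 bases with Syn2, on the opposite strand, so some of these reads may belong to the synapsin genes.

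**Figure D4:**
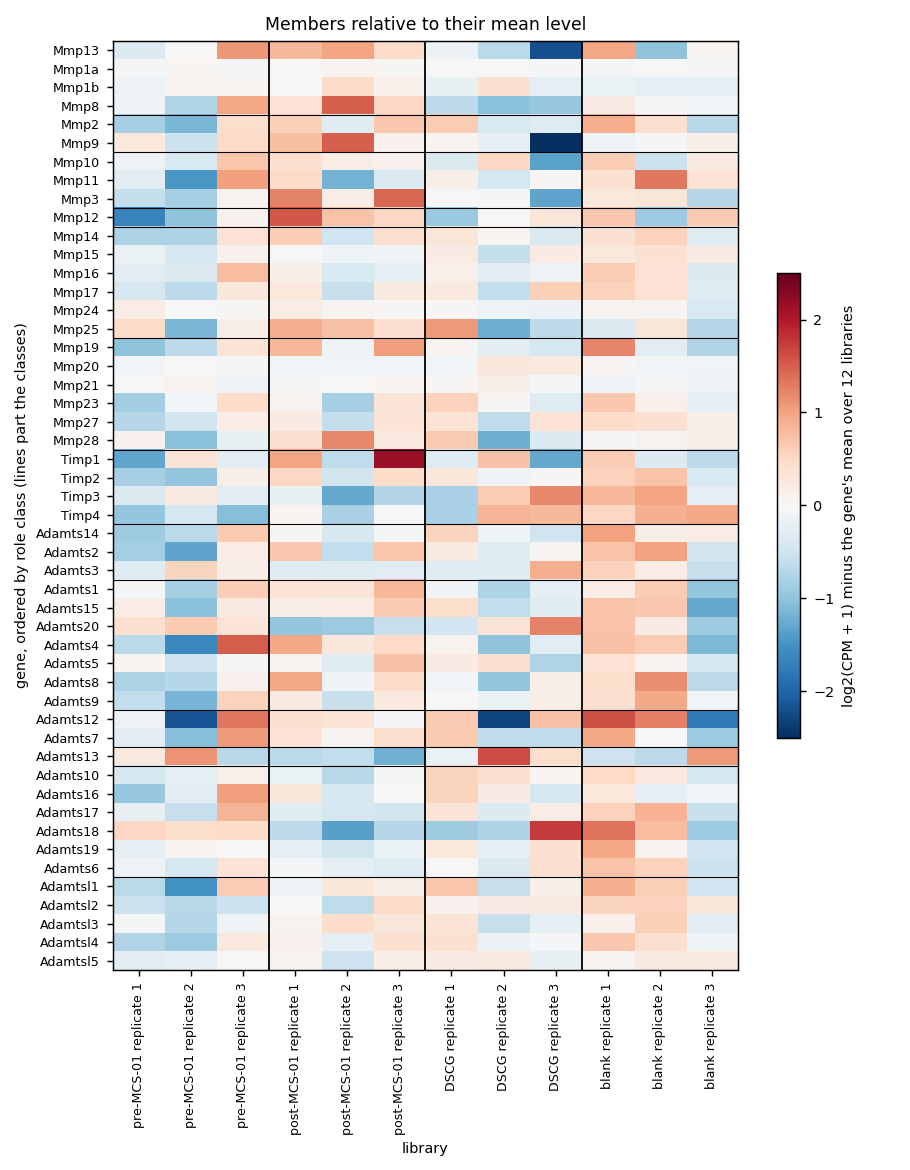
Each of the 50 members in each library as log2(CPM + 1) minus the gene's mean over 12 libraries, with genes in order of role and lines between roles and between groups. Post-MCS-01 columns lean red for Mmp8, Mmp9, Mmp3 and Mmp12 and blue for Adamts20 and Adamts18. Mmp9 in post-MCS-01 replicate 3 and Mmp3 in post-MCS-01 replicate 2 lie near the gene's mean. Pre-MCS-01 replicate 3 differs from its partners in many rows.

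The Adamts proteases that remove the amino-terminal propeptide of fibrillar procollagen are Adamts2, Adamts3 and Adamts14. Adamts2 had the highest level per kilobase of the Adamts genes. Adamts2 had 221, 159 and 454 CPM in the pre-MCS-01 libraries, 637, 260.2 and 645 CPM in post-MCS-01, 466, 324 and 416 CPM in DSCG and 652, 799.9 and 288 CPM in blank libraries. It overlapped in every comparison and had its lowest p in pre-MCS-01 against blank, at a log2 fold change of -1.06 ± 0.48 (SE; adjusted p = 0.688). The summed level of 6 fibroblast markers, all above 0 in every library, was 11651 to 65046 CPM in pre-MCS-01, 19160.2 to 47901 in post-MCS-01, 17834 to 52477 in DSCG and 16691 to 67956 in blank wounds. Most of it came from the collagen genes Col1a1, Col1a2 and Col3a1. Within pre-MCS-01 the library with the highest marker sum, replicate 3, also had the highest Adamts2, Mmp2, Mmp14 and Timp2, as had replicate 1 within DSCG. Within post-MCS-01, replicate 3 had the highest sum, Adamts2 and Mmp2, but replicate 1 had the highest Mmp14 and Timp2. Within blank, replicate 1 had the highest sum and Mmp2, but replicate 2 had the highest Adamts2, Mmp14 and Timp2. The part of the markers in these values was not tested. Adamts14 averaged 15.9 ± 10.5 CPM in pre-MCS-01, 15.8 ± 2.55 in post-MCS-01, 18.2 ± 7.29 in DSCG and 25.3 ± 9.43 in blank wounds (SD, n = 3 each). It lay lower in all 3 post-MCS-01 libraries than in all 3 blank libraries, at a log2 fold change of -0.68 ± 0.44 (SE; adjusted p = 0.713).

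Of the 7 Adamts genes whose products cut proteoglycans such as versican and aggrecan, Adamts20 gave the smallest p. The level of Adamts20 was 4.13, 5.09 and 3.80 CPM in wounds labelled pre-MCS-01, 0.957, 1.06 and 1.58 in those labelled post-MCS-01, 1.75, 3.80 and 8.09 in DSCG and 5.27, 3.41 and 1.05 in blank wounds. Every post-MCS-01 library lay below every pre-MCS-01 and every DSCG library. Blank had 1 library, replicate 3, among the post-MCS-01 values and 2 above them. Its 1.05 CPM is near the limit of 0.786 CPM in that library, which is also 1 of the 3 short of long transcripts. Its log2 fold change was 1.85 ± 0.57 (SE; adjusted p = 0.254) in pre-MCS-01 against post-MCS-01 and -1.92 ± 0.57 (SE; adjusted p = 0.18) in post-MCS-01 against DSCG. DESeq2 called both (adjusted p = 0.0411 and 0.0182), the fit of pre-MCS-01 and post-MCS-01 alone called the first (0.0418), and edgeR without DSCG replicate 1 called the second (0.0319). Adamts20 is known in mice from the belted pigment mutant, in which melanoblasts do not colonize a band of skin.

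Hair follicle markers were also low in post-MCS-01 wounds. The summed level of 7 markers, all above 0 in every library, was 10918 to 24837 CPM in pre-MCS-01, 40.5 to 87.8 in post-MCS-01, 1665 to 34315 in DSCG and 5787 to 16865 in blank wounds. All 7 were called lower by edgeR in post-MCS-01 against DSCG, and 5 of 7 higher in pre-MCS-01 against post-MCS-01. Adamts18, whose role in the skin is less known, was also low in post-MCS-01. In pre-MCS-01 wounds Adamts18 stood at 5.25, 4.91 and 5.02 CPM, in post-MCS-01 at 1.76, 0.696 and 1.68 CPM, in DSCG at 1.34, 1.56 and 13.7 CPM and in blank at 10.2, 6.49 and 1.31 CPM. Post-MCS-01 lay below all pre-MCS-01 libraries and overlapped DSCG, where 2 of 3 libraries were as low, and blank, with a log2 fold change of 1.87 ± 0.86 (SE; adjusted p = 0.491) in pre-MCS-01 against post-MCS-01. In post-MCS-01 against DSCG it was -2.01 ± 0.86 (SE; adjusted p = 0.41), a value that was -0.06 without DSCG replicate 3. The part of the hair follicle markers in the Adamts18 and Adamts20 values was not tested.

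Adamts1, Adamts4 and Adamts5 are the best known of the proteoglycan-cutting enzymes. Adamts1 averaged 66.4 ± 32.2 CPM in pre-MCS-01, 92.9 ± 19.4 in post-MCS-01, 51.4 ± 12.3 in DSCG and 69.0 ± 34.6 in blank wounds (SD, n = 3 each), and Adamts4 averaged 24.9 ± 28.1 CPM in pre-MCS-01, 30.1 ± 7.37 in post-MCS-01, 15.3 ± 5.83 in DSCG and 24.0 ± 13.6 in blank wounds (SD, n = 3 each). Both were higher in all post-MCS-01 than in all DSCG libraries, with log2 fold changes of 0.85 ± 0.42 (SE; adjusted p = 0.481) for Adamts1 and 0.97 ± 0.72 (SE; adjusted p = 0.659) for Adamts4. Adamts5 averaged 55.2 ± 11.7 CPM in pre-MCS-01, 70.7 ± 26.7 in post-MCS-01, 61.9 ± 23.5 in DSCG and 62.5 ± 16.1 in blank wounds (SD, n = 3 each) and overlapped in every comparison. Adamts15 was lower in the 3 libraries short of long transcripts than in the other 9, and Adamts8 and Adamts9 overlapped in every comparison.

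Adamts13, the plasma protease that trims von Willebrand factor, was the only member that lay higher in the 3 libraries short of long transcripts than in the other 9. Libraries labelled pre-MCS-01 held 31.2, 57.9 and 15.9 CPM of Adamts13, post-MCS-01 libraries 15.9, 16.8 and 10.9 CPM, DSCG libraries 23.4, 83.8 and 36.1 CPM and blank libraries 18.0, 16.2 and 55.8 CPM. It ranged from 55.8 to 83.8 CPM in those 3 libraries and from 10.9 to 36.1 CPM in the others. The log2 fold change was -1.71 ± 0.61 (SE; adjusted p = 0.28) in post-MCS-01 against DSCG, without overlap, and -1.03 without the 3 libraries. Post-MCS-01 holds none of the 3. Adamts12, which cuts cartilage oligomeric matrix protein, went the other way, with 1.69 to 2.88 CPM in the 3 libraries and 11.1 to 38.8 CPM in the other 9, the widest span of any member with counts in every library (22.9-fold). Adamts1, Adamts4, Adamts6, Adamts7, Adamts15, Adamtsl3 and Mmp25 were also lower in the 3 libraries than in all others. The remaining 41 members overlapped.

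**Figure D5:**
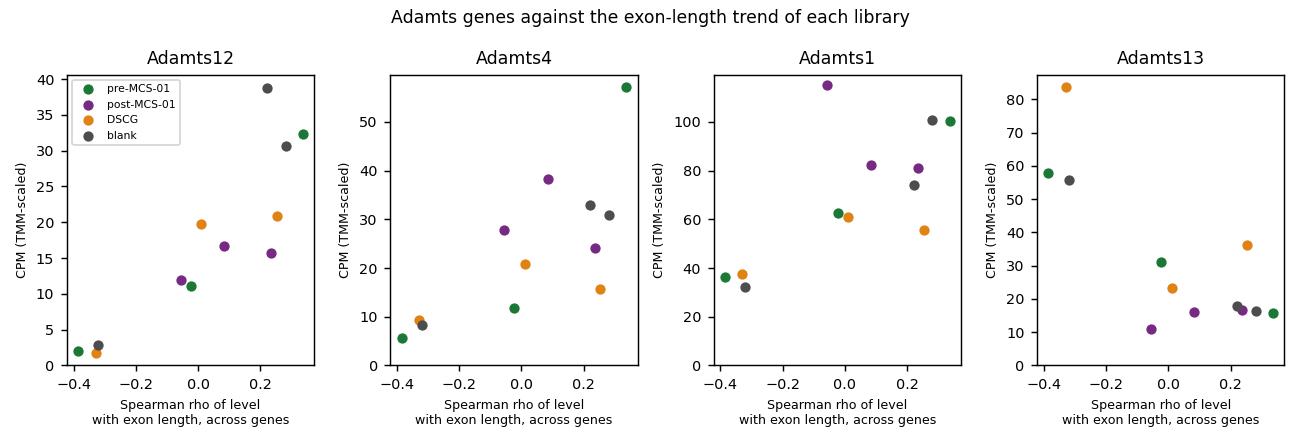
Level in CPM of Adamts12, Adamts4, Adamts1 and Adamts13 in each library against that library's Spearman rho, coloured by group. The rho is across genes, between exon length and log2 CPM minus the gene's mean over the 12 libraries. The 3 libraries at rho of -0.385 to -0.320 are lowest for Adamts12, Adamts4 and Adamts1 and highest for Adamts13.

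For the other 6 Adamts genes the substrates are less settled, and Adamts10 had the highest level among them, at 19.5 ± 3.82 CPM in pre-MCS-01, 17.9 ± 4.28 in post-MCS-01, 28.2 ± 5.13 in DSCG and 24.4 ± 7.70 in blank wounds (SD, n = 3 each). It was lower in all post-MCS-01 than in all DSCG libraries, at a log2 fold change of -0.65 ± 0.28 (SE; adjusted p = 0.401). Adamts19 had the largest negative difference of post-MCS-01 from blank among tested members, at -2.56 ± 0.88 (SE; adjusted p = 0.346) on the log2 scale. It averaged 0.356 ± 0.137 CPM in pre-MCS-01, 0.151 ± 0.116 in post-MCS-01, 0.576 ± 0.317 in DSCG and 0.748 ± 0.899 in blank wounds (SD, n = 3 each), the groups overlapped, and blank ranged from 0 to 1.74 CPM. All 6 of these genes had negative log2 fold changes in post-MCS-01 against blank and in post-MCS-01 against DSCG, with medians of -1.25 and -0.66.

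All 5 Adamtsl genes had negative log2 fold changes in pre-MCS-01 against each of the 3 other groups. Adamtsl2, a secreted protein that binds fibrillin-1 and affects the availability of transforming growth factor beta, gave the smallest p of the 5. Adamtsl2 had 1.04, 0.824 and 1.04 CPM in the pre-MCS-01 libraries, 1.94, 0.912 and 3.12 CPM in post-MCS-01, 2.18, 2.42 and 2.48 CPM in DSCG and 3.33, 3.41 and 2.62 CPM in blank libraries. Each pre-MCS-01 library lay below each DSCG and each blank library, DSCG lay below blank without overlap, and post-MCS-01 spanned from pre-MCS-01 to blank values. The margin between DSCG and blank was narrow, with 2.48 CPM in the highest DSCG library and 2.62 CPM in blank replicate 3. That blank library has the fewest counts, a limit of 0.786 CPM, and is short of long transcripts. Its log2 fold change was -1.71 ± 0.40 (SE; adjusted p = 0.61) in pre-MCS-01 against blank and -1.28 ± 0.39 (SE; adjusted p = 1.00) in pre-MCS-01 against DSCG. Over all other settings the first ranged from -1.80 to -1.61, and DESeq2 called it (adjusted p = 0.0142). Adamtsl5 had the highest CPM of the 5 and the narrowest span of all members with counts in every library, 1.69-fold, with 42.1 ± 4.59 CPM in pre-MCS-01, 44.7 ± 10.6 in post-MCS-01, 50.1 ± 7.61 in DSCG and 53.3 ± 3.21 in blank wounds (SD, n = 3 each).

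Other genes of the pathway were read from 7 lists: plasminogen activation, Adam sheddases, matrix cathepsins, other protease inhibitors, procollagen processing, hyalectan and fibrillin substrates, and inducers of Mmp transcription. Of 60 genes listed, 53 were tested and edgeR called 0 in every comparison, against the same 0% to 1.06% of all genes. Unadjusted p was under 0.05 for 6 of 53 (11.3%) in pre-MCS-01 against blank, where 7.24% of all genes had such a p. The count was also 6 in post-MCS-01 against blank (9.35% of all genes), in pre-MCS-01 against post-MCS-01 (10.2%) and in post-MCS-01 against DSCG (11.3%). It was 2 (3.77%) in pre-MCS-01 against DSCG, with 2.36% of all genes, and 0 in DSCG against blank, with 1.03%. Serpinb2, an inhibitor of plasminogen activators, came closest to the threshold. It averaged 44.4 ± 5.26 CPM in pre-MCS-01, 83.4 ± 36.5 in post-MCS-01, 35.2 ± 12.8 in DSCG and 25.0 ± 8.81 in blank wounds (SD, n = 3 each). Serpinb2 lay higher in all post-MCS-01 than in all blank libraries (log2 fold change 1.75 ± 0.39, adjusted p = 0.0959). All pre-MCS-01 libraries also lay above all blank ones. Il1a, a cytokine that induces Mmp transcription, averaged 14.0 ± 3.95 CPM in pre-MCS-01, 19.3 ± 15.6 in post-MCS-01, 5.14 ± 2.86 in DSCG and 5.57 ± 1.58 in blank wounds (SD, n = 3 each). It was higher in all post-MCS-01 than in all DSCG libraries (log2 fold change 1.91 ± 0.56, adjusted p = 0.178). The margin was narrow, with 8.35 CPM in the lowest post-MCS-01 and 8.26 CPM in the highest DSCG library. All pre-MCS-01 libraries, at 9.49 CPM or more, also lay above all DSCG and all blank libraries.

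Cathepsin K (Ctsk), a collagen-cutting lysosomal protease, averaged 336 ± 29.5 CPM in pre-MCS-01, 799.8 ± 395 in post-MCS-01, 432 ± 28.4 in DSCG and 614 ± 156 in blank wounds (SD, n = 3 each). In pre-MCS-01 against post-MCS-01 it gave a log2 fold change -1.25 ± 0.36, adjusted p = 0.201, with overlap. Acan, the core protein of aggrecan, averaged 3.81 ± 1.29 CPM in pre-MCS-01, 0.914 ± 0.540 in post-MCS-01, 3.75 ± 2.26 in DSCG and 2.70 ± 1.94 in blank wounds (SD, n = 3 each) and gave a log2 fold change 2.06 ± 0.68, adjusted p = 0.306 in the same comparison, without overlap. Comp, the cartilage oligomeric matrix protein that Adamts7 and Adamts12 cut, averaged 1.47 ± 0.779 CPM in pre-MCS-01, 2.25 ± 0.666 in post-MCS-01, 5.75 ± 2.09 in DSCG and 4.57 ± 0.883 in blank wounds (SD, n = 3 each). Its pre-MCS-01 libraries lay below all DSCG libraries (log2 fold change -1.97 ± 0.46, adjusted p = 1.00). The separation was shared: pre-MCS-01 and post-MCS-01 libraries reached at most 1.96 and 2.94 CPM of Comp. DSCG and blank libraries had at least 3.34 and 3.74 CPM. The sheddase Adam8, which leukocytes carry, averaged 84.4 ± 55.5 CPM in pre-MCS-01, 117 ± 78.9 in post-MCS-01, 43.9 ± 28.3 in DSCG and 38.6 ± 14.8 in blank wounds (SD, n = 3 each). It lay higher in all post-MCS-01 than in all blank libraries (log2 fold change 1.60 ± 0.65, adjusted p = 0.462). Spock2 and Pcolce2, a matrix proteoglycan and an enhancer of procollagen processing, both lay lower in all pre-MCS-01 than in all blank libraries, at log2 fold change -1.59 ± 0.41, adjusted p = 0.61 for Spock2 and log2 fold change -1.35 ± 0.40, adjusted p = 0.61 for Pcolce2.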

How the data were processed

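Total RNA from 12 back-skin wounds was used for TruSeq RNA libraries, per the labels' protocols. The authors deposited raw counts per gene symbol, made with FastQC, TopHat2, Bowtie2, HTSeq and limma on mm10, per the submitters' processing notes, whose versions, annotation and strand setting are not given in the sources used here. The 5 summary lines of each file were left out. Of all counts in a file, those lines included, reads in no gene made up 4.34% to 6.81%, ambiguous reads 0.956% to 1.35% and reads not mapped uniquely 17.2% to 23.4%, so near-identical genes may be undercounted. Libraries were grouped by treatment label, and replicate numbers follow record order. Replicates of a group differed beyond sampling noise (chi-square per degree of freedom 62.3 to 474 over 12 pairs).

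In R 4.3.3, filterByExpr left 16267 genes, which were scaled with TMM (factors 0.905 to 1.07) and tested two-sided with edgeR 4.0.16 (quasi-likelihood F test) in 1 model of 4 group means, with Benjamini-Hochberg adjustment over all genes tested and a threshold of 0.05. The biological coefficient of variation was 0.347. Adjusted p-values in the text come from this edgeR model unless another tool is named, ± after a log2 fold change is its standard error, and ± after a CPM is a standard deviation over 3 libraries. With 3 against 3 libraries, an exact permutation test of a single value cannot go below 0.1. Alternatives were RLE and total-count scaling, no filter, DESeq2 1.42.0, limma-voom (limma 3.58.1) with and without library quality weights, the 2 groups alone, leaving out each library, leaving out the 3 libraries short of long transcripts, and the exon-length trend as a covariate. Exon lengths and gene positions came from GENCODE M21 (GRCm38, the assembly of mm10) by symbol, with a length for 95.4% of genes tested, and promoter windows from RefSeq. The steps were tested on simulated data.

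The members, lists and alternatives were chosen with earlier results of these data known. Members are named where they pass the threshold, belong to a set of 17 well-known members, have the highest CPM of their role, combine an unadjusted p under 0.05, a log2 fold change of at least 1 in size and no overlap, or show the largest difference of a comparison. Members named outside this rule, which include Mmp15, Mmp25, Mmp28 and Adamts3, were chosen after their values were seen.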

Additional observations from a re-analysis of the deposited data

How the results depend on the processing

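Calls of members depended on the test. In place of 0 members by edgeR, DESeq2 called 2 members in pre-MCS-01 against blank, 2 in pre-MCS-01 against post-MCS-01, 2 in post-MCS-01 against DSCG and 3 in the joint test, with 0.424%, 2.63%, 3.81% and 3.49% of all genes in that order. Limma-voom with library quality weights called 20 in pre-MCS-01 against blank, 3 in post-MCS-01 against blank, 20 in pre-MCS-01 against post-MCS-01 and 17 in the joint test, in settings that also called 5.08% to 23.5% of all genes, and the fit of pre-MCS-01 and post-MCS-01 alone called 1 (Adamts20, with 1.25% of all genes). Leaving out each library in turn gave 0 to 1 members in post-MCS-01 against DSCG and 0 to 0 in the other comparisons and the joint test. Over all genes these fits called 0% to 3.67% in post-MCS-01 against DSCG and at most 1.65% elsewhere. RLE and total-count scaling, no filter, plain limma-voom, the exon-length covariate and the fit without the 3 libraries short of long transcripts called 0 members throughout. The largest share of all genes called in any comparison was 1.01% with RLE, 1.11% with total-count scaling and 0.883% without the filter. It was 0.0123% with plain limma-voom, 0.00615% with the covariate and 0% without the 3 libraries. Among the fold changes of named members under the alternatives, 420 kept their direction and side of the threshold, 16 kept the direction and passed it, and 2 had the opposite sign: Mmp1b in DSCG against blank, 3.09 on the log2 scale, was -0.59 without DSCG replicate 2, the lowest value with 1 library left out (highest 5.87), and -0.65 without the 3 libraries. The cause was not tested, beyond the construction of each setting.

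Counts of members with unadjusted p under 0.05 also moved when a library was left out, from 2 to 20 in pre-MCS-01 against blank, 3 to 10 in post-MCS-01 against blank, 0 to 4 in DSCG against blank, 4 to 16 in pre-MCS-01 against post-MCS-01, 3 to 11 in pre-MCS-01 against DSCG and 6 to 13 in post-MCS-01 against DSCG. The share of all genes with such a p moved as well. In the same order it ran 2.76% to 11.2%, 5.87% to 10.6%, 0.37% to 4.53%, 5.45% to 15.1%, 1.63% to 5.16% and 7.56% to 18%. With library quality weights the counts of members were 33 in pre-MCS-01 against blank, 16 in post-MCS-01 against blank, 25 in pre-MCS-01 against post-MCS-01 and 9 in pre-MCS-01 against DSCG, where 35%, 21.2%, 38.4% and 6.12% of all genes had such a p. No paired analysis was possible because the mouse numbers of all groups differ and the labels name no shared litter, batch or day. Blank replicate 3, with the fewest counts, limits what can be said of members under or near 0.786 CPM in the blank group.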
